A study of Mus musculus with 12 samples.

Results

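The genes of MHC class I presentation and the immunoproteasome were followed in mouse macrophages and osteoclasts, both with and without LPS (lipopolysaccharide, from the outer membrane of Gram-negative bacteria). The members were the 10 genes H2-K1, H2-D1, B2m, Tap1, Tap2, Tapbp, Psmb8, Psmb9, Psmb10 and Nlrc5, chosen by gene symbol. All 10 matched 1 Ensembl identifier each among the 54532 genes of the deposited table, and all 10 passed the filter that left 11335 genes for testing. Marrow cells from the femurs and tibiae of WT mice were grown in medium with CMG, a source of the macrophage growth factor M-CSF, in all groups. The 12 libraries formed 4 groups of 3. Untreated macrophages received no RANKL, the cytokine that turns macrophages into bone-resorbing osteoclasts. LPS-treated macrophages received 100 ng/mL LPS for 3 h on day 5. Untreated osteoclasts were grown with RANKL, given as 100 ng/mL in the sample source and as a range in the protocol, and LPS-treated osteoclasts had the same LPS treatment on day 5. The labels give no strain, age or sex, and do not say whether replicates came from separate mice or cultures, so the p-values measure the spread between these libraries, which may be technical.

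MHC class I molecules show peptides from the cell's own proteins to cytotoxic T cells. The proteasome cuts proteins into peptides, the TAP transporter carries them into the endoplasmic reticulum, and tapasin holds an empty class I molecule near the transporter until a peptide binds. In cells exposed to interferon, 3 catalytic subunits of the proteasome can be replaced by inducible counterparts, which gives the immunoproteasome. Most of these genes are known to respond to interferons, and Nlrc5 encodes a transactivator of class I genes. Macrophages present antigen and respond to LPS through TLR4, which also leads them to make type I interferon. Osteoclasts come from the same precursors.

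The values are FPKM, fragments per kilobase of gene with a denominator per library, so levels of different genes can be compared per length. The libraries held between 15651791 and 20281471 reads assigned to genes, as recovered from the values. Of the osteoclast markers, 10 of 10 were at a mean of 1 FPKM or more in both osteoclast groups, and their summed level was 29794 to 31237 FPKM in untreated and 29220.3 to 32220.2 FPKM in LPS-treated osteoclasts, against 16.3 to 20.5 and 24.7 to 29.0 FPKM in macrophages. The 8 macrophage markers summed to 2150.4 to 2226 FPKM in untreated macrophages, 3162 to 3227 with LPS, 1737 to 1816 in untreated osteoclasts and 1739 to 1829 in LPS-treated osteoclasts, nearly all of it Cd68 and Csf1r in osteoclasts. Singly, 7 of the 8 were lower in untreated osteoclasts and Cd68 was higher: Adgre1 had a mean of 428 FPKM in untreated macrophages and 33.1 in untreated osteoclasts, Mrc1 293 and 2.57, Cx3cr1 142 and 0.486, Fcgr1 45.0 and 0.429, and Cd68 670.2 and 1402 FPKM. With LPS in osteoclasts 3 of the 8 rose, Adgre1 to 62.2, Cd14 from 16.2 to 45.3 FPKM and Fcgr1 by 0.79 on the log2 scale. In each of the 4 groups Cd3d, Cd3g and Nkg7, which mark T and natural killer cells, were listed at 0 in all libraries. T and NK cell markers, nearly all of it Trac in osteoclasts, summed to at most 3.96 FPKM, and B cell markers to at most 1.14 FPKM, in untreated macrophages. Dendritic cell markers summed to 0.202 to 0.280 FPKM in untreated and 5.61 to 6.27 FPKM in LPS-treated macrophages, and to 0.595 to 0.692 and 1.34 to 1.84 FPKM in osteoclasts. Of these, Xcr1 rose with LPS in macrophages from a mean of 0.150 to 5.31 FPKM. Neutrophil markers summed to 4.25 to 6.25 and 5.40 to 12.2 FPKM in macrophages without and with LPS, against 0.247 to 0.682 and 0.553 to 1.76 FPKM in osteoclasts, and stromal markers to 25.8 to 35.5 and 27.8 to 33.6 FPKM, against 0.613 to 0.929 and 0.779 to 1.39 FPKM. The part of these cells in the results was not tested. The LPS-treated osteoclasts were the most spread group. Pairs in the other 3 groups gave a chi-square per degree of freedom of 2.61 to 6.36. In LPS-treated osteoclasts it was 12.6 for replicates 1 and 2, 8.71 for 2 and 3 and 7.94 for 1 and 3. Replicate 2 was the lowest of its group for 7 of the 10 members and 6 of the 8 macrophage markers, among them Adgre1 at 42.5 FPKM against 73.1 and 70.9. Without it, 9 members were called for LPS in osteoclasts and 10 for the interaction, as with it. Replicate 2 of the LPS-treated macrophages was the lowest of its group for 10 of the 10 members, and 10 were called without it as well. The summed FPKM of this replicate was also the lowest of its group, at 399796 against 406290 and 408994. That of LPS-treated osteoclast replicate 2 was too, at 354564 against 377667 and 356486. How often a library was the lowest over all genes tested was not counted. In bulk RNA, a culture with fewer cells that express a gene and a culture with less of its RNA per cell cannot be told apart.

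LPS raised all 10 members in macrophages, and 9 of the 10 in osteoclasts by smaller amounts. Without LPS, 7 of the 10 were lower in osteoclasts than in macrophages, 1 was higher, and 2 did not pass the test. With LPS, all 10 were lower in osteoclasts. These counts are for the deposited scaling: H2-D1 with LPS in macrophages and Tap2 between LPS-treated cell types did not keep their direction on quantile-normalized values. The background was large in each comparison: limma called 36.8% of all genes tested as higher and 33.1% as lower with LPS in macrophages, 11.1% as higher and 6.59% as lower with LPS in osteoclasts, 39% as lower and 38.8% as higher in untreated osteoclasts, and 43% as lower and 40.9% as higher in LPS-treated osteoclasts. The LPS-treated and untreated osteoclast libraries did not overlap for any of the 10, all higher with LPS, as for 19% of all genes tested. The median log2 difference of the members was 1.73 for LPS in macrophages, beside 0.02 over all genes tested, and 0.46 for LPS in osteoclasts, beside 0.00552. It was -0.92 for untreated and -2.17 for LPS-treated osteoclasts against macrophages, beside 0 and -0.02 over all genes. Log2 differences, here and below, are of log2(FPKM + 1), a scale that understates the change of low genes, and adjusted p-values are limma's over all 11335 genes. Folds are ratios of group mean FPKM.

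**Figure D1:**
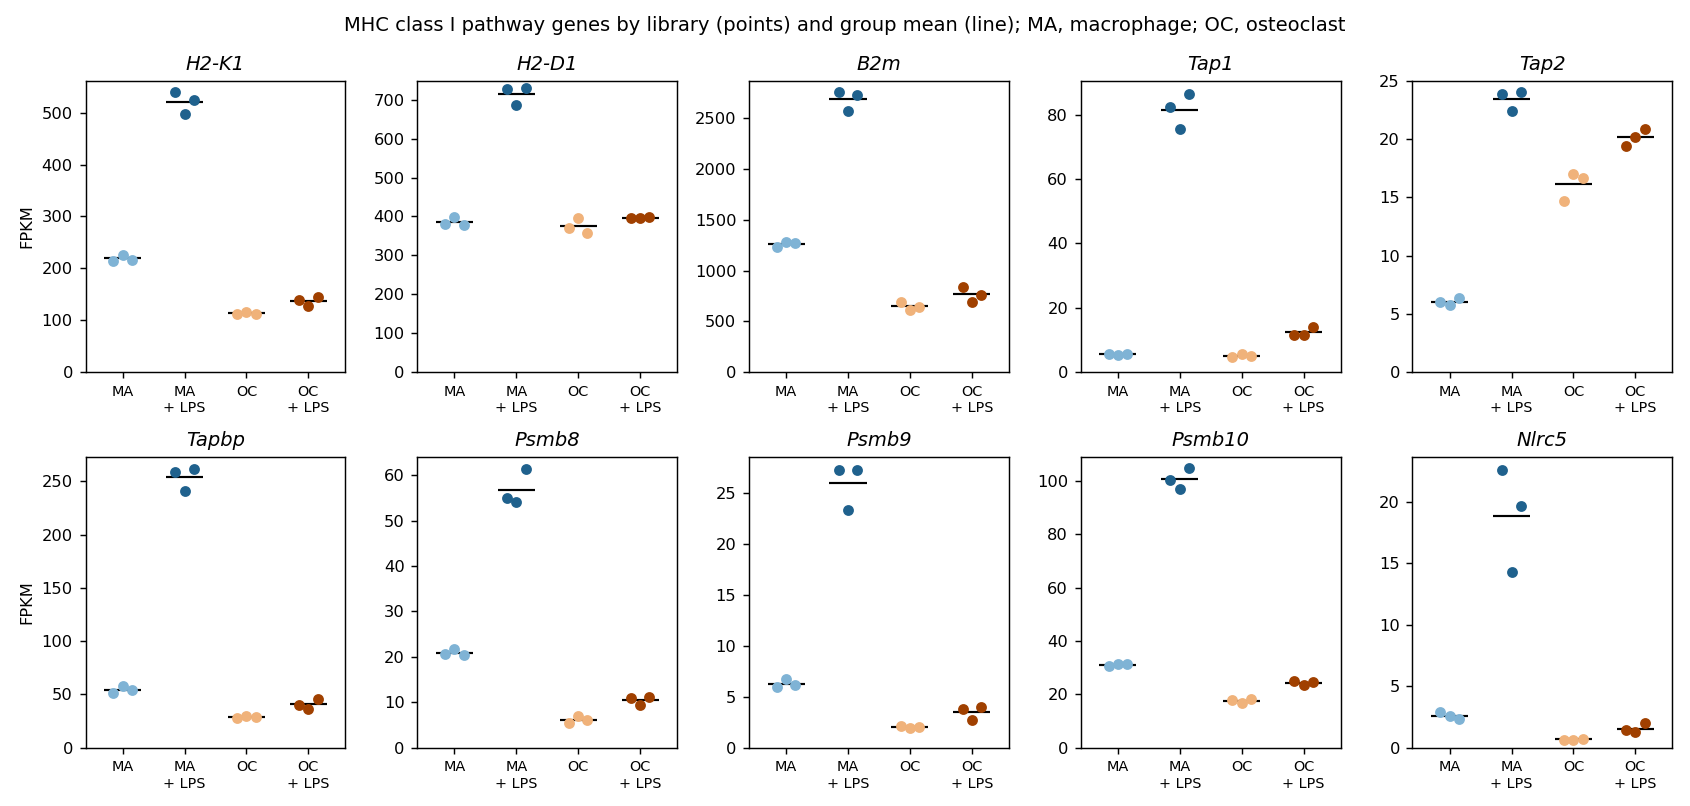
FPKM of each of the 10 genes (vertical axis, linear from 0, a separate scale in each panel) in the 4 groups (horizontal axis; MA, macrophages; OC, osteoclasts), with a point per library and a line at the mean of 3. In all 10 panels the LPS-treated macrophages lie above the other groups, and the osteoclast groups lie close together, with H2-D1 level across both osteoclast groups and untreated macrophages, and Tap2 higher in untreated osteoclasts than in untreated macrophages.

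H2-K1 and H2-D1 encode class I heavy chains, which hold the peptide, and B2m encodes beta-2-microglobulin, the light chain that every class I heavy chain needs to reach the cell surface. H2-K1 (ENSMUSG00000061232, chromosome 17, 33996017 to 34000347, minus strand) was at 214, 226 and 216 FPKM in untreated macrophages and 539.8, 497 and 524 FPKM with LPS. In osteoclasts it was at 112, 115 and 113 FPKM untreated and 139.7, 127 and 144 FPKM with LPS. The macrophage groups were separate from each other and above all 6 osteoclast libraries, and LPS-treated osteoclasts stayed under untreated macrophages. LPS raised H2-K1 by 2.38-fold in macrophages, a log2 difference of 1.24 (adjusted p = 3.66e-10, SE 0.05), and by 1.21-fold in osteoclasts, a log2 difference of 0.27 (adjusted p = 0.00251, SE 0.05). Scaling moved these differences: in macrophages to 0.60 in TPM units and 0.39 on quantile-normalized values, both called, and in osteoclasts to 0.20, called, and 0.15, not called.

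H2-D1 (ENSMUSG00000073411, chromosome 17, 35262730 to 35267499, plus strand) was at 381, 399 and 377 FPKM in untreated macrophages and 728, 686 and 729.5 FPKM with LPS. In osteoclasts it was at 369, 396 and 358 FPKM untreated and 396, 396 and 398 FPKM with LPS. Untreated osteoclasts overlapped untreated macrophages, and the log2 difference of -0.05 (adjusted p = 0.369, SE 0.04) did not pass the test, with a 95% interval of -0.14 to 0.05. LPS raised H2-D1 in macrophages by 1.85-fold, a log2 difference of 0.89 (adjusted p = 3.17e-09, SE 0.04). That difference became 0.24 in TPM units, still called, and -0.00892 on quantile-normalized values, with no call. In osteoclasts each treated library lay above each untreated one by a small margin, and the log2 difference of 0.09 (adjusted p = 0.222, SE 0.04) did not pass the test, with an interval of -0.01 to 0.18. H2-D1 was the only one of the 10 without an LPS call in osteoclasts.

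B2m (ENSMUSG00000060802, chromosome 2, 122147686 to 122153083, plus strand) had the highest levels of the 10 genes in each group. It was at 1232, 1285 and 1270.3 FPKM in untreated macrophages and 2759, 2570.2 and 2725 FPKM with LPS, and at 691, 616 and 636 FPKM in untreated and 842, 694 and 759.6 FPKM in LPS-treated osteoclasts. No library of one group overlapped another group, although the highest untreated and the lowest treated osteoclast libraries nearly met. LPS raised B2m by 2.13-fold in macrophages, a log2 difference of 1.09 (adjusted p = 2.60e-08, SE 0.07), and by 1.18-fold in osteoclasts, a log2 difference of 0.24 (adjusted p = 0.0331, SE 0.07). The call in osteoclasts was lost without untreated replicate 2 or 3 and without LPS-treated replicate 1 or 3, with log2 differences of 0.20, 0.22, 0.17 and 0.24. The macrophage difference became 0.44 in TPM units and 0.25 on quantile-normalized values, both called, and the osteoclast one 0.17 and 0.14, neither called. Class I genes have near copies in the genome: 9.63% of the 50-base windows of H2-K1 transcripts and 12.8% of those of H2-D1 also occur in transcripts of another gene, so part of their reads could not be placed on 1 gene, while B2m shares 0%.

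The promoters of these chains are shown because all 3 chain genes rose with LPS in macrophages. They are RefSeq windows on GRCm38.p6 of 250 bases before to 50 after the start of transcription, 5′ to 3′ on the gene's strand, and 8 of the 10 members had one. Tap2 and Nlrc5 had none. Capitals mark matches, on either strand, to the NF-kB consensus, to the core of the interferon-stimulated response element (ISRE; GAAA, any 2 bases, GAAA), or to the gamma-activated site (GAS), TTCNNNGAA.
H2-K1 (chr17:34000298-34000597, minus strand): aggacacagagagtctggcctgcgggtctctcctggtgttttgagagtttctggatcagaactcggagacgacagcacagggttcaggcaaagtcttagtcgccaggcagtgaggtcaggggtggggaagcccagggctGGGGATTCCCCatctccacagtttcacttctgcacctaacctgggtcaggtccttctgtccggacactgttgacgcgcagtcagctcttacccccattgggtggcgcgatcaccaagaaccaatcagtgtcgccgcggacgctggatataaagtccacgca
H2-D1 (chr17:35262844-35263143, plus strand): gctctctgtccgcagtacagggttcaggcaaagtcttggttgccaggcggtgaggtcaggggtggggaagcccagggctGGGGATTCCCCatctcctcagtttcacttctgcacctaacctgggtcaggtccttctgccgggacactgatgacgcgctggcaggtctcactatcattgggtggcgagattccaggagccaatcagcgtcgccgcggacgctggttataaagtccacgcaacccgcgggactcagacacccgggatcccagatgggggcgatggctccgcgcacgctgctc
B2m (chr2:122147437-122147736, plus strand): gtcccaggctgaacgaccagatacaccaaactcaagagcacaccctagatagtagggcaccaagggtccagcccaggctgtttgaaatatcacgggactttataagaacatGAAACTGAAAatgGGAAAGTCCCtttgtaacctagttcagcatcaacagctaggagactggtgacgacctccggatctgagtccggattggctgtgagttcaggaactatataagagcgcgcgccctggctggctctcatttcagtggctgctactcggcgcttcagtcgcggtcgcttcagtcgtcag
Of all 32851 windows of this length, 4.51% held the NF-kB consensus, 3.44% the ISRE core and 8.30% the GAS. H2-K1 and H2-D1 held the same run, GGGGATTCCCC, in which 2 overlapping matches to the NF-kB consensus read on both strands. It began 111 and 171 bases before the RefSeq start in turn, distances that depend on where each start is annotated. Lined up at that run without gaps, the windows were identical at 176 of 240 bases, or 73.3%. B2m held 1 ISRE core match and 1 NF-kB match, beginning 139 and 126 bases before its start. The H2-K1 table entry has another start 14 bases downstream, whose window holds the same run. A match describes these letters and no binding, and sites that depart from a pattern by a base or more were not searched for. CCAAT, the box bound by NF-Y, was in all 3 windows and in 37.4% of all windows.

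Tap1 and Tap2 encode the paired subunits of the TAP transporter, and Tapbp encodes tapasin. Tap1 (ENSMUSG00000037321, chromosome 17, 34187553 to 34197225, plus strand) had the highest fold with LPS among the 10 genes in both cell types. In osteoclasts the lead was narrow, 2.42-fold against 2.29-fold for Nlrc5, and it did not hold without LPS-treated replicate 2. Tap1 was at 5.51, 5.41 and 5.52 FPKM in untreated macrophages and 82.4, 75.7 and 86.4 FPKM with LPS. That was 14.9-fold higher, a log2 difference of 3.67 (adjusted p = 1.31e-12, SE 0.08). In osteoclasts it was at 4.83, 5.66 and 4.88 FPKM untreated and 11.6, 11.6 and 13.9 FPKM with LPS, 2.42-fold higher, a log2 difference of 1.13 (adjusted p = 7.15e-07, SE 0.08). The untreated groups overlapped, with a log2 difference between cell types of -0.08 (adjusted p = 0.331, SE 0.08) and an interval of -0.25 to 0.08, whereas with LPS each macrophage library was above each osteoclast library.

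Tap2 (ENSMUSG00000024339, chromosome 17, 34203527 to 34216321, plus strand) had another pattern. It was at 6.02, 5.79 and 6.33 FPKM in untreated macrophages and 23.9, 22.5 and 24.1 FPKM with LPS, and at 14.7, 17.0 and 16.7 FPKM in untreated and 19.5, 20.2 and 20.9 FPKM in LPS-treated osteoclasts. Untreated osteoclasts were 2.67-fold above untreated macrophages, a log2 difference of 1.28 (adjusted p = 7.46e-10, SE 0.06), which made Tap2 the member that was higher in osteoclasts. LPS raised Tap2 by 3.88-fold in macrophages, a log2 difference of 1.80 (adjusted p = 5.17e-11, SE 0.06), and by 1.25-fold in osteoclasts, a log2 difference of 0.31 (adjusted p = 0.00279, SE 0.06). With LPS the cell types were close, and the log2 difference of -0.21 (adjusted p = 0.00526, SE 0.06) became -0.06 in TPM units, without a call, and 0.03 on quantile-normalized values. Mean levels of Tap2 and Tap1 were 16.1 and 5.12 FPKM in untreated osteoclasts and 20.2 and 12.4 FPKM in LPS-treated osteoclasts. They were 6.05 and 5.48 FPKM in untreated macrophages and 23.5 and 81.5 FPKM in LPS-treated macrophages. Tap1 was thus the subunit with more RNA in LPS-treated macrophages only.

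Tapbp (ENSMUSG00000024308, chromosome 17, 33915899 to 33929292, plus strand) was at 51.2, 58.1 and 54.1 FPKM in untreated macrophages and 259, 241 and 262 FPKM with LPS. In osteoclasts it was at 28.3, 29.5 and 28.8 FPKM untreated and 39.8, 36.2 and 45.8 FPKM with LPS, all under the untreated macrophages. LPS raised it by 4.67-fold in macrophages, a log2 difference of 2.20 (adjusted p = 7.95e-11, SE 0.07), and by 1.41-fold in osteoclasts, a log2 difference of 0.47 (adjusted p = 8.25e-04, SE 0.07). Of the Tapbp exon sequence, 149 bases also belong to Zbtb22 on the same strand, so reads from them cannot be assigned to 1 gene. Tap2, Tapbp, Psmb8 and Nlrc5 also share exon bases with the opposite-strand genes Gm15821 and Gm20496, Gm19412, Gm20496 and 9330175E14Rik in turn, whose mean levels over the 12 libraries were between 0 and 0.565 FPKM.

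Tap1 and Psmb9 lie next to each other on chromosome 17 and are read in opposite directions from 1 stretch, which is shown because both genes rose with LPS, by different amounts. Their starts are 226 bases apart in RefSeq, and their windows share 275 of 300 bases. The Tap1 window is printed on the Tap1 strand.
Tap1 (chr17:34187306-34187605, plus strand): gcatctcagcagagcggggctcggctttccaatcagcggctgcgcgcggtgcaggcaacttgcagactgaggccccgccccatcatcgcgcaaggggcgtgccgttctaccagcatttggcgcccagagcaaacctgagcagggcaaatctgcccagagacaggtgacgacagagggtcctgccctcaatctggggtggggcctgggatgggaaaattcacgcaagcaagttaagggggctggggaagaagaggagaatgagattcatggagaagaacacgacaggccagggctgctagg
No match to the NF-kB consensus, the ISRE core or the GAS is in these letters, and the window has no capitals. The exons of the pair overlap by 212 bases in the GENCODE M21 annotation, 3.87% of Tap1 and 5.79% of Psmb9, and whether counting used strand is not stated, so reads there cannot be told apart. With LPS in macrophages the mean was 81.5 FPKM for Tap1 and 26.0 FPKM for Psmb9, while without LPS it was 5.48 and 6.29 FPKM. Without LPS, Psmb9 was 3.12-fold lower in osteoclasts and Tap1 1.07-fold, the latter with overlapping libraries and no call.

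Psmb8, Psmb9 and Psmb10 encode the inducible catalytic subunits, which take the places of the constitutive Psmb5, Psmb6 and Psmb7 in newly built proteasomes. Psmb8 (ENSMUSG00000024338, chromosome 17, 34197721 to 34201454, plus strand) was at 20.6, 21.8 and 20.3 FPKM in untreated macrophages and 55.1, 54.1 and 61.2 FPKM with LPS, and at 5.43, 6.88 and 6.17 FPKM in untreated and 10.9, 9.32 and 11.3 FPKM in LPS-treated osteoclasts. Its promoter window held 1 GAS match, 97 bases before the start. The windows of Psmb10 and Tapbp held no match to the NF-kB consensus, the ISRE core or the GAS. For Psmb8, untreated osteoclasts were 3.39-fold lower than untreated macrophages, a log2 difference of -1.62 (adjusted p = 2.59e-09, SE 0.08). LPS raised it by 2.72-fold in macrophages, a log2 difference of 1.40 (adjusted p = 1.55e-08, SE 0.08), and by 1.70-fold in osteoclasts, a log2 difference of 0.68 (adjusted p = 1.09e-04, SE 0.08). In macrophages the difference became 0.79 in TPM units and 0.87 on quantile-normalized values, both called.

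Psmb9 (ENSMUSG00000096727, chromosome 17, 34181987 to 34187764, minus strand) was at 5.97, 6.73 and 6.16 FPKM in untreated macrophages and 27.3, 23.3 and 27.3 FPKM with LPS, and at 2.13, 1.91 and 2.01 FPKM in untreated and 3.75, 2.73 and 3.95 FPKM in LPS-treated osteoclasts. LPS raised it by 4.13-fold in macrophages, a log2 difference of 1.89 (adjusted p = 5.27e-09, SE 0.10), and by 1.72-fold in osteoclasts, a log2 difference of 0.56 (adjusted p = 0.00204, SE 0.10). LPS-treated osteoclast replicate 2 was the lowest of its group for Psmb8, Psmb9 and Psmb10 and still above the untreated libraries, and without it the log2 differences in osteoclasts were 0.76 for Psmb8 and 0.69 for Psmb9. Psmb10 (ENSMUSG00000031897, chromosome 8, 105935735 to 105938444, minus strand) was at 30.7, 31.5 and 31.3 FPKM in untreated macrophages and 100.3, 96.9 and 105 FPKM with LPS, and at 17.9, 16.8 and 18.4 FPKM in untreated and 24.9, 23.6 and 24.7 FPKM in LPS-treated osteoclasts. LPS raised it by 3.23-fold in macrophages, a log2 difference of 1.66 (adjusted p = 7.61e-12, SE 0.04), and by 1.38-fold in osteoclasts, a log2 difference of 0.45 (adjusted p = 1.54e-05, SE 0.04). Without LPS, the log2 difference between osteoclasts and macrophages was -1.27 (adjusted p = 1.49e-07, SE 0.10) for Psmb9 and -0.79 (adjusted p = 4.55e-09, SE 0.04) for Psmb10. For Psmb10, TPM units gave -1.22 there and 1.04 for LPS in macrophages, both called.

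The constitutive counterparts were higher, not lower, in osteoclasts. Without LPS the log2 difference between osteoclasts and macrophages was 1.10 (adjusted p = 1.34e-09, SE 0.05) for Psmb5, 0.78 (adjusted p = 1.40e-08, SE 0.05) for Psmb6 and 1.07 (adjusted p = 3.86e-08, SE 0.07) for Psmb7, of which Psmb7 shares 405 exon bases with Nek6 on the opposite strand. After rescaling to TPM these differences were 0.70, 0.38 and 0.69, and all were called. A ratio of the FPKM of 2 genes within a library does not depend on scaling between libraries. Psmb8 made up 23.3%, 24.0% and 24.4% of the summed FPKM of Psmb8 and Psmb5 in untreated macrophages, 38.7%, 39.5% and 41.7% with LPS, 3.92%, 3.98% and 4.33% in untreated osteoclasts and 5.92%, 6.31% and 6.82% with LPS, in rising order. The 4 groups did not overlap. The share of Psmb9 in its pair with Psmb6 was 12.2% ± 0.447 in untreated macrophages, 24.5% ± 1.99 with LPS, 2.50% ± 0.203 in untreated osteoclasts and 3.69% ± 0.608 with LPS (SD, n = 3). Psmb10 made up 66.6% ± 0.824, 82.0% ± 1.91, 34.2% ± 0.843 and 38.6% ± 1.87 of its pair with Psmb7 in the same order of groups (SD, n = 3). The inducible subunit was thus the more abundant RNA of its pair for Psmb10 in both macrophage groups, and the less abundant one in all other pairs and groups.

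As plain log2 ratios of FPKM, a form chosen after seeing the data, the Psmb8 to Psmb5 ratio rose with LPS by 1.09 (SE 0.06) in macrophages and 0.67 (SE 0.08) in osteoclasts, the Psmb9 to Psmb6 ratio by 1.23 (SE 0.10) and 0.57 (SE 0.16), and the Psmb10 to Psmb7 ratio by 1.19 (SE 0.11) and 0.27 (SE 0.07). Osteoclasts differed from macrophages by -2.88, -2.44 and -1.94 without LPS and by -3.30, -3.09 and -2.86 with it. With FPKM + 1 in place of FPKM, a form on which scaling does bear, the rises with LPS were 1.05 and 0.59, 1.08 and 0.36, and 1.19 and 0.26 in the same order, so that of Psmb9 to Psmb6 in osteoclasts was lower by more than 1.5 times. In all 12 comparisons, in both forms, the groups did not overlap, and the two-sided exact permutation test gave p = 0.1 in each, the smallest value that 3 libraries against 3 allow, also after adjustment over the 12.

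**Figure D2:**
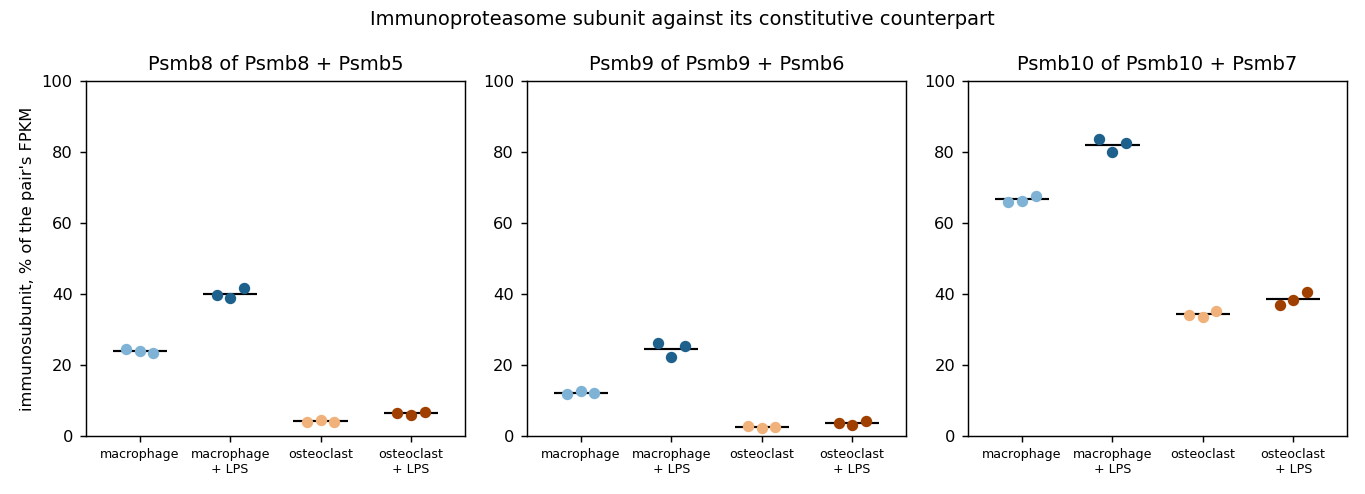
Share of each inducible subunit in the summed FPKM of the subunit and its constitutive counterpart (vertical axis, 0 to 100%) by group (horizontal axis), a point per library and a line at the mean of 3. In each pair the shares fall in the order LPS-treated macrophages, untreated macrophages, LPS-treated osteoclasts and untreated osteoclasts, and no groups overlap.

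Nlrc5 (ENSMUSG00000074151, chromosome 8, 94434356 to 94527272, plus strand), the transactivator, had the lowest level of the 10 genes in each group. It was at 2.91, 2.59 and 2.33 FPKM in untreated macrophages and 22.6, 14.3 and 19.6 FPKM with LPS, and at 0.664, 0.662 and 0.720 FPKM in untreated and 1.43, 1.26 and 1.99 FPKM in LPS-treated osteoclasts. The untreated osteoclast libraries held between 95 and 104 reads of this long gene and were close to each other. LPS raised Nlrc5 by 7.22-fold in macrophages, a log2 difference of 2.44 (adjusted p = 1.45e-08, SE 0.14), and by 2.29-fold in osteoclasts, a log2 difference of 0.60 (adjusted p = 0.0137, SE 0.14). Without LPS it was 3.83-fold lower in osteoclasts, a log2 difference of -1.10 (adjusted p = 1.77e-05, SE 0.14). With LPS it was 12.1-fold lower, a log2 difference of -2.94 (adjusted p = 1.17e-09, SE 0.14). Both were the lowest ratios of mean FPKM of the 10. On the log2 scale without LPS, Psmb8 at -1.62 and Psmb9 at -1.27 were lower than Nlrc5. With a pseudocount of 0.1 in place of 1, the log2 difference of Nlrc5 was 1.06 for LPS in osteoclasts and -1.79 between untreated cell types, both called. The spread between replicates was wider than for the other genes in the treated groups, with a coefficient of variation of 22.3% in LPS-treated macrophages and 24.6% in LPS-treated osteoclasts, where the median over the 10 genes was 4.23% and 9.80%.

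The interaction, the osteoclast LPS effect less the macrophage one, tested whether the responses differed. It was below 0 and called for all 10 genes, where 30% of all genes tested were called below 0 and 26.6% above 0. It was -2.54 (adjusted p = 2.36e-09, SE 0.11) for Tap1, -1.84 (adjusted p = 9.05e-06, SE 0.20) for Nlrc5, -1.73 (adjusted p = 4.86e-08, SE 0.10) for Tapbp and -1.49 (adjusted p = 2.04e-08, SE 0.08) for Tap2. The other 6 lay between -1.33 for Psmb9 and -0.72 for Psmb8, with adjusted p-values of at most 2.42e-04. As differences of log2 ratios of mean FPKM, with no pseudocount, the 10 lay between -2.62 for Tap1 and -0.67 for Psmb8. Psmb8 had the interaction nearest 0 of the 10: its fold was 2.72 in macrophages and 1.70 in osteoclasts, and its interaction lost the call in TPM units, at -0.12. In TPM units the interactions of H2-D1, B2m and H2-K1 shrank to -0.23, -0.27 and -0.40 and those of Psmb10 and Psmb9 to -0.65 and -0.74, all still called, where 13.9% of all genes tested were called below 0. On quantile-normalized values 7 of the 10 were called, against 24.1% of all genes tested below 0, without H2-D1 at -0.04, B2m at -0.11 and Psmb8 at -0.23.

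**Figure D3:**
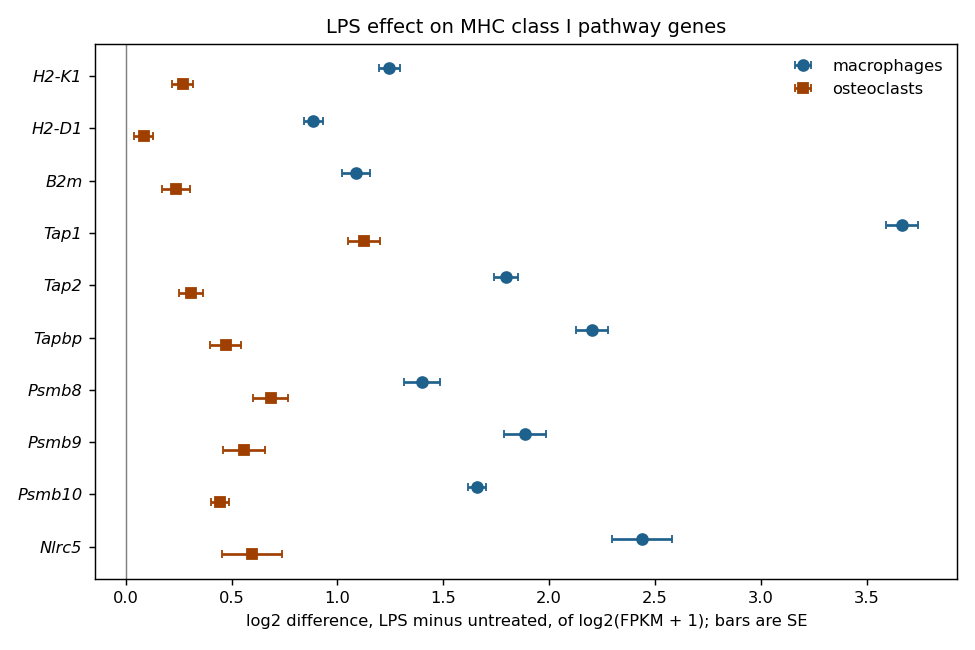
Log2 difference of log2(FPKM + 1) between LPS-treated and untreated libraries (horizontal axis) for each of the 10 genes (vertical axis), circles for macrophages and squares for osteoclasts, with bars of 1 SE from limma. All 10 circles lie to the right of their squares, with Tap1 at 3.67 and 1.13 the farthest right in both cell types.

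The deposited values are scaled to the typical gene, and this choice bears on the direction of small changes. In TPM units, where all libraries have the same sum, the median over all genes tested was -0.55 for LPS in macrophages, -0.06 for LPS in osteoclasts, -0.38 and 0.12 for osteoclasts against macrophages without and with LPS, and 0.51 for the interaction. On that scale 15.9% of all genes tested were called higher and 70% lower with LPS in macrophages, and 8.29% higher and 10.8% lower in osteoclasts. The medians of the members were then 1.15, 0.40, -1.34, -2.05 and -0.70, on the same side of the typical gene as before. H2-D1 and Tap1 became lower in untreated osteoclasts on that scale, with log2 differences of -0.46 (adjusted p 4.42e-07) and -0.49 (adjusted p 1.53e-04) in limma. On quantile-normalized values H2-D1 was also called, at -0.43, and Tap1 was not, at -0.03.

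**Figure D4:**
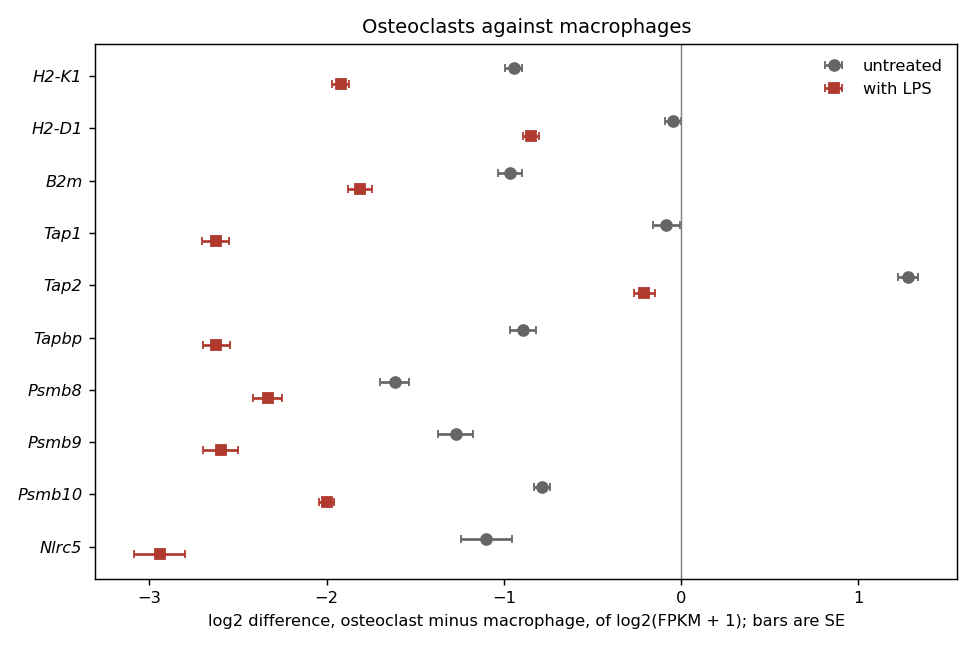
Log2 difference of log2(FPKM + 1) between osteoclasts and macrophages (horizontal axis) for each of the 10 genes (vertical axis), circles without LPS and squares with LPS, with bars of 1 SE from limma. Without LPS, Tap2 lies at 1.28, H2-D1 and Tap1 lie near 0 and the other 7 between -1.62 and -0.79. With LPS all 10 lie below 0.

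The order of levels within a group was the same at the top: B2m, H2-D1, H2-K1, Tapbp and Psmb10 came first in all 4 groups, in that order. Neighbours among them did not overlap in any library, and Psmb10 overlapped the gene after it, Tap2, in untreated osteoclasts only. The lower ranks changed. Tap1 was at rank 9 in untreated macrophages and rank 6 with LPS, and Tap2 was at rank 8 in untreated macrophages and rank 6 in untreated osteoclasts. The light chain B2m exceeded the sum of the means of H2-K1 and H2-D1 in each group, for example 648 FPKM against 113 and 374 FPKM in untreated osteoclasts.

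Members were compared by the root-mean-square difference of their log2(FPKM + 1) over the 12 libraries, each gene centred on its own mean. H2-K1 and B2m were the closest pair of members, at 0.0850, and no tested gene outside the list was nearer to B2m than H2-K1, while 2 were nearer to H2-K1 than B2m. H2-D1, Tap1 and Tap2 had no close member: the nearest were at 0.486 (B2m), 0.592 (Nlrc5) and 0.596 (H2-D1). Outside the list, the gene most like Tap1 was Il15ra at 0.110, the one most like Psmb8 was Uba7 at 0.124, the one most like Psmb10 was Stim2 at 0.0624 and the one most like H2-D1 was Wtap at 0.0450. Il15ra, which encodes a chain of the interleukin-15 receptor, went from 0.493 to 19.4 FPKM with LPS in macrophages and from 0.586 to 2.03 FPKM in osteoclasts. These are descriptions over 12 libraries that share 4 groups.

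Class Ib and class I-like genes encode relatives of the classical heavy chains with narrower tissue or ligand ranges. Of 16 such genes, 15 were matched in the deposited table, H2-T9 was not, and 11 passed the filter. Of these, 9 rose and 2 fell with LPS in macrophages (36.8% and 33.1% of all genes tested). In osteoclasts 8 rose and 0 fell (11.1% and 6.59%). Without LPS, 7 were lower and 2 higher in osteoclasts (39% and 38.8% of all genes tested). The median log2 difference of the list there was -0.70. H2-T10, H2-Q6, H2-T22 and H2-Q7 had the largest differences with LPS in macrophages in this list on the log2(FPKM + 1) scale, while by the ratio of mean FPKM H2-M2, described next, came first. H2-T22 went from 9.53 ± 0.473 to 65.5 ± 3.94 FPKM in macrophages and from 3.66 ± 0.309 to 8.09 ± 1.28 FPKM in osteoclasts (SD, n = 3), log2 differences of 2.66 and 0.96, both called. H2-T10 went from 0.822 ± 0.0303 to 13.7 ± 2.44 FPKM and from 0.0720 ± 0.0328 to 0.837 ± 0.136 FPKM (SD, n = 3), with an interaction of -2.22 (adjusted p = 1.28e-07, SE 0.15) that was -0.53 and not called with voom on recovered reads. H2-Q6 and H2-Q7 went from 0.383 ± 0.127 to 8.88 ± 0.502 and from 0.240 ± 0.0805 to 5.86 ± 0.868 FPKM in macrophages (SD, n = 3), and in osteoclasts given LPS they were at 0.593 ± 0.307 and 0.599 ± 0.185 FPKM (SD, n = 3). Of their 50-base windows, 32.0% and 26.4% occur in other genes, and H2-T10 and H2-T22 share exon bases with BC023719 and A930015D03Rik. H2-T10 is annotated as a polymorphic pseudogene in GENCODE M21. H2-T23, which encodes Qa-1, the ligand of an inhibitory receptor pair of natural killer cells, was at 24.4 ± 0.885 FPKM in untreated and 87.3 ± 4.88 FPKM in LPS-treated macrophages (SD, n = 3). In osteoclasts it was at 24.6 ± 0.466 and 26.7 ± 1.79 FPKM (SD, n = 3). The log2 difference between untreated cell types, 0.01 (adjusted p = 0.884, SE 0.05), did not pass the test and became -0.40, called, in TPM units, and its LPS effect in osteoclasts was 0.11 (adjusted p = 0.184, SE 0.05). In macrophages the LPS effect of 1.79 (adjusted p = 2.94e-11, SE 0.05) was 1.18 in TPM units, both called. H2-Q4 went from 10.4 ± 0.393 to 53.4 ± 5.05 FPKM in macrophages and from 1.24 ± 0.419 to 5.55 ± 1.27 FPKM in osteoclasts (SD, n = 3). Its interaction of -0.71 (adjusted p = 0.0150, SE 0.22) became -0.24, not called, with a pseudocount of 0.1, and 21.8% of its 50-base windows occur in other genes.

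H2-M2, a class Ib gene, was higher in osteoclasts than in macrophages in both states, against the direction of most of the list. It was at 0.111, 0.0274 and 0.0290 FPKM in untreated macrophages, from 4, 1 and 1 reads, and at 3.64, 3.50 and 2.06 FPKM with LPS. In osteoclasts it was at 1.89, 2.29 and 1.48 FPKM untreated and 11.7, 6.90 and 12.5 FPKM with LPS, from 359, 165 and 353 reads, the highest group. The log2 difference between cell types was 1.44 (adjusted p = 3.42e-05, SE 0.20) without and 1.47 (adjusted p = 2.47e-05, SE 0.20) with LPS, and LPS raised it in both cell types, by 1.92 (adjusted p = 3.46e-06, SE 0.20) in macrophages and 1.95 (adjusted p = 3.10e-05, SE 0.20) in osteoclasts. The interaction of 0.03 (adjusted p = 0.948, SE 0.29) did not pass the test, but it was -1.97 with a pseudocount of 0.1 and -3.17 with voom on recovered reads, both called below 0. Of its 50-base windows, 1.61% occur in other genes.

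Psme1 and Psme2 encode the interferon-inducible activator cap of the proteasome. Psme2 went from 47.1 ± 1.05 to 168 ± 8.20 FPKM with LPS in macrophages and from 38.0 ± 2.81 to 62.0 ± 7.05 FPKM in osteoclasts (SD, n = 3), log2 differences of 1.81 (adjusted p = 6.80e-10, SE 0.08) and 0.69 (adjusted p = 5.60e-05, SE 0.08). Psme1 rose by 1.11 (adjusted p = 6.66e-08, SE 0.08) and 0.42 (adjusted p = 0.00233, SE 0.08) and was lower in untreated osteoclasts, with a difference of -1.38 (adjusted p = 5.31e-09, SE 0.08) on the log2 scale. Both kept their LPS calls in both cell types in TPM units, with 1.18 for Psme2 and 0.48 for Psme1 in macrophages, while the interaction of Psme1, -0.69 (adjusted p = 1.78e-04, SE 0.11), became -0.11 there and was not called. Of the 14 core proteasome genes, 12 rose with LPS in macrophages, with a median log2 difference of 0.48, where 36.8% of all genes tested rose. In osteoclasts 4 rose, with a median of 0.18, where 11.1% of all genes tested rose. The direction in macrophages depends on the scaling. In TPM units 3 rose and 7 fell there, where 15.9% and 70% of all genes tested did. The counts were the same on quantile-normalized values, where 26.9% and 45.8% did. In osteoclasts 8 of the 14 rose with voom on recovered reads, against 12.9% of all genes tested, and 1 on quantile-normalized values, against 8.35%.

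In the peptide loading list, Tapbpl, which encodes the tapasin-related editor TAPBPR, rose in both cell types. It was at 5.85, 5.37 and 4.72 FPKM in untreated macrophages and 16.1, 14.2 and 14.9 FPKM with LPS, and at 2.44, 2.19 and 3.00 FPKM in untreated and 6.74, 7.72 and 7.62 FPKM in LPS-treated osteoclasts. LPS raised it by 1.35 (adjusted p = 5.96e-08, SE 0.09) and 1.24 (adjusted p = 1.66e-06, SE 0.09) on the log2 scale, and the interaction of -0.11 (adjusted p = 0.511, SE 0.13) did not pass the test, with a 95% interval of -0.39 to 0.18. After rescaling to TPM its rise in macrophages was 0.83 and called, and the interaction was 0.53 and called above 0, against the direction of its relative Tapbp. Erap1, which encodes an aminopeptidase that trims peptides for class I, was lower in untreated osteoclasts, where the log2 difference was -1.58 (adjusted p = 1.48e-09, SE 0.08), and shares exon bases with Cast on the opposite strand. The lectin chaperone gene Calr was higher there by 1.23 (adjusted p = 4.64e-08, SE 0.09), which was 0.82 in TPM units and called. Of the 6 genes, 6 rose with LPS in macrophages and 1 in osteoclasts, where 36.8% and 11.1% of all genes tested did. After rescaling to TPM, 2 rose and 4 fell in macrophages, where 15.9% and 70% of all genes tested did.

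Regulators of the class I genes include the interferon signalling factors Stat2 and Irf9, the interferon-induced factor Irf1, NF-kB subunits and the RFX complex, through which Nlrc5 acts. Of 21 such genes, all tested, 18 rose and 3 fell with LPS in macrophages (36.8% and 33.1% of all genes tested). In osteoclasts 8 rose and 0 fell (11.1% and 6.59%). The median log2 differences of the list were 1.04 and 0.13. In TPM units 12 rose and 5 fell in macrophages (15.9% and 70% of all genes tested). On that scale 7 rose and 2 fell in osteoclasts (8.29% and 10.8%). Without LPS, 16 were lower and 2 higher in osteoclasts (39% and 38.8% of all genes tested). Irf1 went from 7.17 ± 0.426 to 375 ± 5.12 FPKM in macrophages and from 2.60 ± 0.318 to 20.6 ± 3.83 FPKM in osteoclasts (SD, n = 3), log2 differences of 5.52 (adjusted p = 9.29e-13, SE 0.11) and 2.57 (adjusted p = 1.61e-08, SE 0.11), with an interaction of -2.95 (adjusted p = 1.46e-08, SE 0.16). Jak2, a kinase of interferon receptors, went from 9.72 ± 0.217 to 171 ± 8.01 FPKM in macrophages and from 4.11 ± 0.299 to 18.5 ± 4.64 FPKM in osteoclasts (SD, n = 3), with an interaction of -2.10 (adjusted p = 1.90e-06, SE 0.19). Nfkb1, which encodes an NF-kB subunit, rose by 2.92 and 0.78 on the log2 scale, with an interaction of -2.14 (adjusted p = 7.21e-10, SE 0.08), and Stat2 by 2.93 and 1.26, with an interaction of -1.68 (adjusted p = 2.48e-06, SE 0.16), which was -0.95 in TPM units and called. Irf9 rose by 1.71 (adjusted p = 5.15e-10, SE 0.07) and 1.54 (adjusted p = 2.68e-08, SE 0.07), and its interaction of -0.17 (adjusted p = 0.172, SE 0.10) did not pass the test, with an interval of -0.39 to 0.05; after rescaling to TPM it was 0.59 and called. Rfx5, which encodes the DNA-binding chain of the RFX complex, was at 2.23 ± 0.250 and 3.89 ± 0.430 FPKM in macrophages without and with LPS and at 0.832 ± 0.0997 and 1.09 ± 0.102 FPKM in osteoclasts (SD, n = 3). It was lower in untreated osteoclasts, where the log2 difference was -0.82 (adjusted p = 1.85e-06, SE 0.08) and -1.50 in TPM units, and its LPS effect was 0.60 (adjusted p = 4.25e-05, SE 0.08) in macrophages, not called in TPM units (0.14), and 0.19 (adjusted p = 0.143, SE 0.08) in osteoclasts. Irf9 shares exon bases with Rnf31, and Irf1 and Rfx5 share them with other annotated genes whose mean levels were at most 1.83 FPKM over the 12 libraries.

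**Figure D5:**
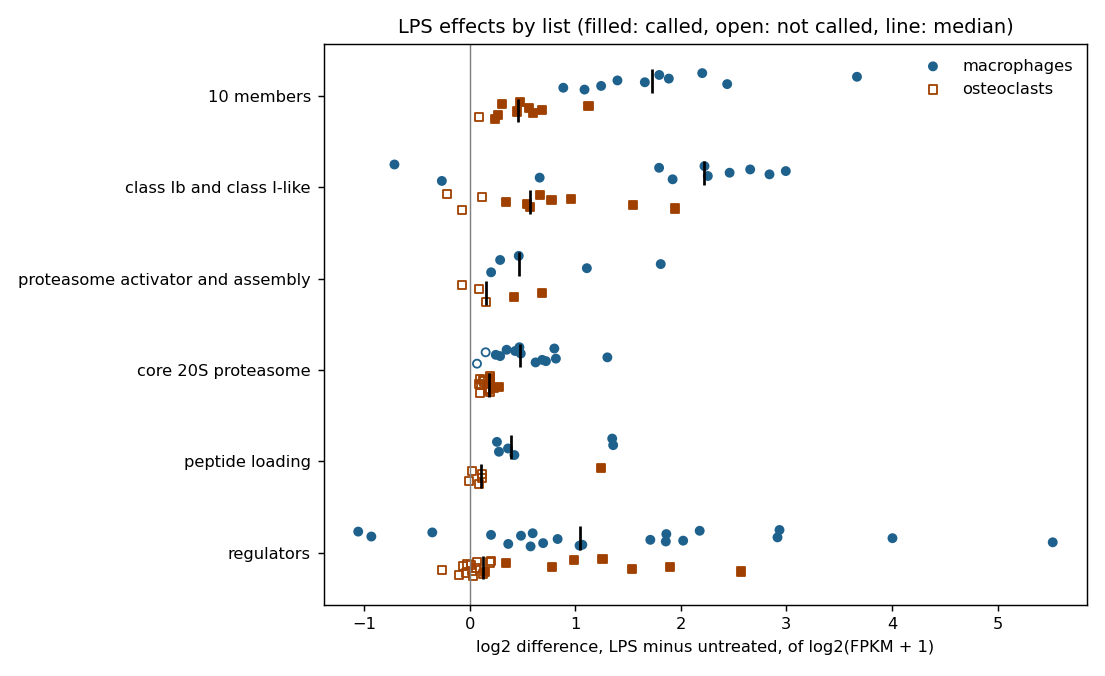
Log2 difference of log2(FPKM + 1) between LPS-treated and untreated libraries (horizontal axis) for the genes of each list (vertical axis), circles for macrophages and squares for osteoclasts, filled where limma called the gene, with a line at the list's median. The medians of the 10 members are 1.73 and 0.46, those of class Ib and class I-like genes 2.22 and 0.57, and those of core proteasome genes 0.48 and 0.18.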

How the data were processed

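RNA was sequenced from 12 samples, per the labels with the NEBNext Ultra RNA kit. The authors deposited FPKM values for 54532 Ensembl genes. The submitters' processing notes name fastp, STAR, featureCounts and DESeq2 and the build mm10, with no versions; annotation and strand setting are not given in the sources used here. Each gene's values were multiples of 1 read's worth, within 0.02 of a read, for 96.8% of 25854 genes above 0 at GENCODE M21 exon lengths, and for the rest at another whole-number length, so reads could be recovered. Denominators matched median-of-ratios size factors, so a change is relative to the typical gene; this is inferred. Replicates differed by more than sampling noise (chi-square per degree of freedom 2.61 to 12.6).

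The filter kept genes at 1 FPKM or more in 3 or more libraries, which were tested on log2(FPKM + 1) with limma 3.58.1 in R 4.3.3 (variance trend, 12 libraries in 1 fit of 4 group means, two-sided, Benjamini-Hochberg, called at an adjusted p under 0.05). Symbols were found for 54409 identifiers. Positions are GENCODE M21 on GRCm38 (mm10). Ratios of subunits used the exact permutation test in SciPy 1.17.1. Other settings tried were no filter, a filter on the mean (5 FPKM), a pseudocount of 0.1, TPM, quantile normalization, only the groups compared, a replicate block, no variance trend, voom on recovered reads and leaving out each library. Members and lists were chosen with earlier results of these data known. All members were described. Other list genes could be named where they passed the test in a comparison and were among the 4 largest absolute log2 differences of their list there, and some of these are described, chosen with their values known. Psmb5, Psmb6, Psmb7, Psme1, Psme2, Irf1 and Rfx5 were named regardless; 1 other gene of that kind is not reported here. H2-T23 was named after its values were seen. Likeness took the 2 nearest genes outside the list for each member, and some of these are given.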

Additional observations from a re-analysis of the deposited data

Results flagged for a closer look

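For all 10 genes the response to LPS was not the same in both cell types by limma's test of the interaction on log2(FPKM + 1), with the effect in osteoclasts below that in macrophages. The difference was -2.54 for Tap1, -1.84 for Nlrc5, -1.73 for Tapbp, -1.49 for Tap2, -1.33 for Psmb9 and -1.21 for Psmb10. It was -0.98 for H2-K1, -0.85 for B2m, -0.80 for H2-D1 and -0.72 for Psmb8. In the same test 30% of all genes tested were called below 0. Scaling changed the sizes: in TPM units the values were -0.23 for H2-D1, -0.27 for B2m and -0.40 for H2-K1, and Psmb8, at -0.12, was not called. On quantile-normalized values 7 of the 10 were called, with H2-D1 at -0.04 and B2m at -0.11.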

How the results depend on the processing

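The number of members called stayed within 1.5 times the value reported in all 5 comparisons under every alternative run. Leaving out each library in turn gave 10 to 10 members for LPS in macrophages, 8 to 9 for LPS in osteoclasts, 8 to 8 for untreated cell types, 10 to 10 with LPS and 10 to 10 for the interaction. Of 1040 comparisons of a member's log2 difference with an alternative, 1020 kept direction and call, 14 lost the call, 3 gained one and 3 reversed. Quantile normalization gave the reversals: -0.00892 for H2-D1 with LPS in macrophages, -0.0453 for H2-D1 with LPS in osteoclasts and 0.0334 for Tap2 between LPS-treated cell types; the cause was not tested. B2m lost its osteoclast LPS call with no filter, after TPM, after quantile normalization and with only the groups compared, and H2-K1 lost its own after quantile normalization. With a mean of at least 5 FPKM fewer genes were tested, and all genes called fell from 7921 to 4851 for LPS in macrophages, from 8822 to 5427 and from 9509 to 5694 for the cell types without and with LPS and from 6413 to 4018 for the interaction. The differences of subunit log2 ratios kept their direction under a pseudocount of 0.1, without a pseudocount and in each fit without 1 library. With voom on the recovered reads, 7948 genes were called for LPS in macrophages, 2410 for LPS in osteoclasts, 8944 and 9418 for the cell types without and with LPS and 6094 for the interaction. Only the groups compared gives no separate fit for the interaction, which uses all groups.

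With the replicate number as a block, the pairing being only a shared number, 10, 9, 8, 10 and 10 members were called in the same 5 comparisons, as without it. The deviations of same-numbered libraries correlated between -0.0702 and 0.104 over 18 pairs, and 7 of the 18 correlated best with their own number, so the numbers were not taken to pair libraries.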

Other observations

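Interferon receptors were not described above. Ifnar1 and Ifnar2, the chains of the type I interferon receptor, were lower in untreated osteoclasts, with limma log2 differences of -1.31 (adjusted p = 6.60e-12, SE 0.03) and -1.23 (adjusted p = 2.11e-10, SE 0.05), and rose with LPS in macrophages by 1.04 (adjusted p = 7.14e-11, SE 0.03) and 1.07 (adjusted p = 1.20e-09, SE 0.05). These rises became 0.41 and 0.44 in TPM units and 0.36 and 0.51 on quantile-normalized values, all called. In osteoclasts their LPS effects were -0.10 (adjusted p = 0.0655, SE 0.03) and 0.13 (adjusted p = 0.0990, SE 0.05) and did not pass the test, while that of Ifnar1 was called below 0 on both other scales, at -0.17 and -0.19. Ifngr1, a chain of the interferon-gamma receptor, was at 45.0 ± 0.737 FPKM in untreated macrophages and 13.9 ± 0.216 FPKM in untreated osteoclasts (SD, n = 3), a log2 difference of -1.63 (adjusted p = 2.02e-11, SE 0.05), while the partner chain Ifngr2 was higher in osteoclasts by 0.33 (adjusted p = 9.00e-06, SE 0.04), which was -0.08 after rescaling to TPM. These 4 genes, and Rfxap, were chosen after their values were seen.

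Rfxap, which encodes another chain of the RFX complex, fell with LPS in macrophages, where the log2 difference was -1.06 (adjusted p = 3.24e-05, SE 0.14), and its effect in osteoclasts was 0.20 (adjusted p = 0.389, SE 0.14), with an interaction of 1.26 (adjusted p = 2.14e-04, SE 0.20), while TPM units gave -1.82 in macrophages and an interaction of 1.97. Irf8, a factor of the monocyte lineage, was at 22.7 ± 1.05 and 95.1 ± 5.95 FPKM in macrophages without and with LPS and at 1.08 ± 0.0753 and 0.745 ± 0.236 FPKM in osteoclasts (SD, n = 3), with a log2 difference between LPS-treated cell types of -5.79 (adjusted p = 5.47e-14, SE 0.09).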
